A study of Saccharomyces cerevisiae with 24 samples.

Results

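The proteasome is the large protease that destroys proteins tagged with ubiquitin. Its 20S core is a barrel in which outer rings of alpha subunits guard inner rings of beta subunits, some of which carry the cutting sites. A 19S regulatory particle caps the barrel. Its base holds a ring of ATPases that unfolds substrates, and its lid holds the enzyme that removes ubiquitin. In budding yeast most of these genes are switched on together by the transcription factor Rpn4, which the proteasome itself degrades quickly, so that its level falls when proteasomes are sufficient.

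The 34 proteasome genes described here are the nuclear protein-coding genes of the yeast assembly R64 named PRE, PUP, RPN or RPT with a number, plus SCL1, out of 6002 nuclear protein-coding genes in all. They comprise 7 genes for the alpha ring, 7 for the beta ring, 6 for the ATPases of the base, 4 for other base subunits and 8 for the lid. The remaining 2 are RPN4, which encodes the regulator, and RPN14, which encodes an assembly chaperone and no subunit of the finished particle.

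The data come from FAIRE, which fixes chromatin with formaldehyde, shears it and sequences the DNA that a phenol-chloroform extraction leaves free of protein. Giant colonies of the laboratory strain BY4742 were grown for 3 days at 28 °C on a rich glycerol and ethanol medium that held a pH dye, and cells were scraped from them. The groups are 4 mg of biomass, then 20 mg, then 100 mg, with 500 mg as the largest, each with 3 biological replicates, and the series title sets the aim of a procedure for low cell numbers. All 4 groups share the strain, the medium and the age, and each of the 12 FAIRE libraries had its own input library of DNA that was not fixed, 24 samples in all. BY4742 is a strain of mating type alpha with deletions in 4 marker genes. No list had a summit or a peak at LEU2, LYS2 or URA3, whereas HIS3, of which this strain keeps a portion, had a peak in all 12. The measured material is a whole scraped population, so a peak does not say in what share of the cells a site was open.

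Each library gave 1 peak list, with between 4180 and 6439 peaks whose median width per list was 258 to 338 bp. A promoter is called marked where a list had a summit, the highest point of a peak, in the 500 bp before the start codon. A gene is called covered where a peak overlapped at least 50 bp between its start and stop codons, introns included. The lists hold no read totals, so the depth behind them is unknown, and an unmarked promoter is one without a reported summit in the window, whether or not a reported peak reached into it. The 2 shortest lists, 100 mg replicate 1 with 4180 peaks and 4 mg replicate 2 with 4578, also had the fewest covered proteasome genes, 16 each. Of the 21 proteasome genes covered in at least 8 libraries, 6 lacked a peak in 4 mg replicate 2. At 100 mg, 5 lacked one in replicate 1 and 4 in replicate 3, and at most 2 lacked one in any other library. With either of the 2 shortest lists left out, 1 proteasome promoter was marked in every remaining library and 18 in none, as with all 12, and 14 genes were covered throughout, against 13 with all 12.

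Proteasome promoters were marked in about the share of all promoters, and mostly in some lists but not others. RPT4 alone was marked in all 12 libraries, which is 2.94% of the 34 genes against 9.73% of the 6000 genes with a full window. Another 9 were marked in 6 to 11 libraries, 26.5% against 13.8% of all genes. A further 6 were marked in 1 to 5 libraries, 17.6% against 18.4%. The other 18, or 52.9%, were marked in no library, against 58% of all genes. Pooled over libraries, 25.2% of gene and library pairs were marked for the proteasome and 23.7% for all genes.

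**Figure D1:**
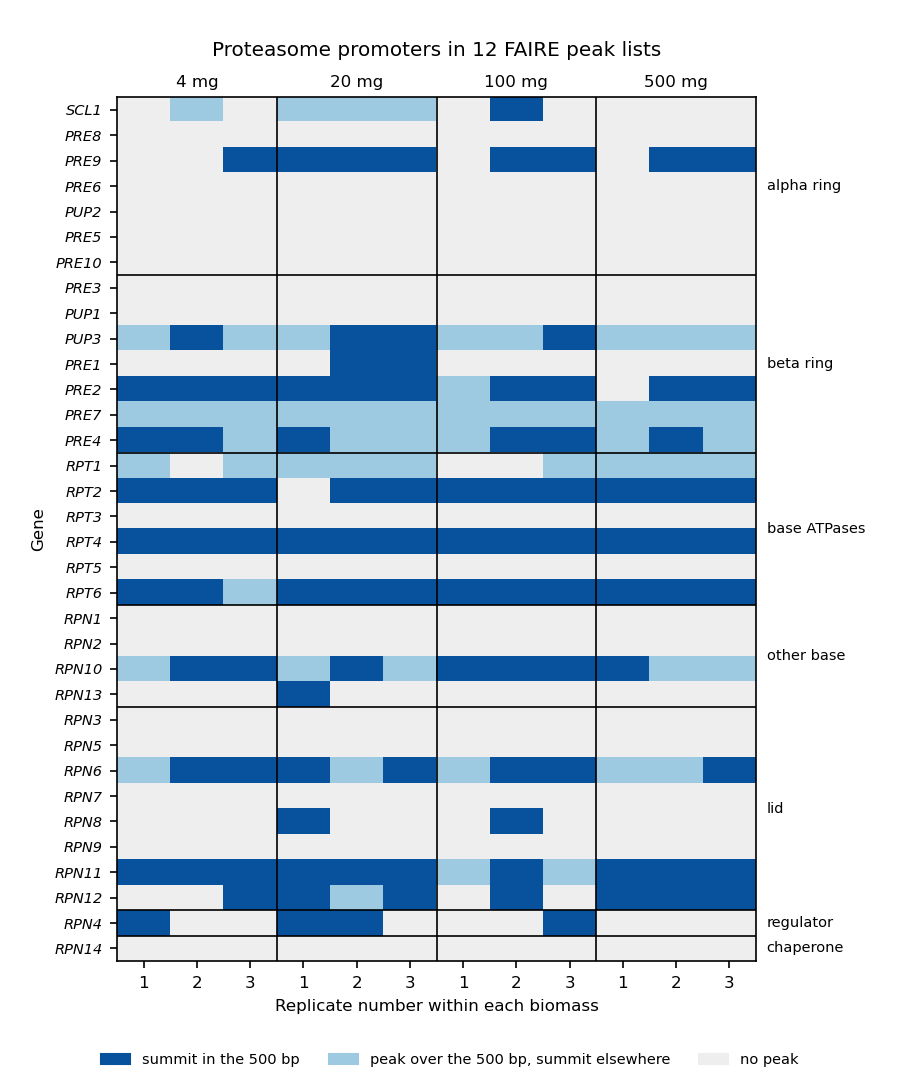
State of each proteasome promoter (rows, by role) in each of the 12 libraries (columns, 3 replicates per biomass). Dark cells have a summit in the 500 bp before the start codon, pale cells a peak over at least 50 bp of it with the summit elsewhere, grey cells neither; the RPT4 row is dark in all 12 columns and 18 rows have no dark cell.

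Coverage of a gene needs only an overlap of 50 bp anywhere along it, a looser rule than a summit in 500 bp. Counts of covered genes and of marked promoters are thus not directly comparable. A peak covered 13 of the 34 genes in all 12 libraries, 38.2% against 34.5% of all genes. Among them, 8 never had a marked promoter (PRE6, PUP2, PRE5, PRE10, PUP1, RPT3, RPT5 and RPN2), 23.5% against 15.8% of all genes. At the other end, 4 genes had no peak over the promoter window or the gene in any library, 11.8% against 18.6% of all genes, and all 4 encode lid subunits. The share of a gene that lay under peaks, averaged over the 12 libraries, had a median of 17.2% over the 34 genes and 11.9% over all genes. By particle, the median was 41.7% over the 14 core genes and 8.16% over the 18 genes of the 19S particle. Core genes are shorter, with a median of 764.5 bp against 1297.5 bp, and across the 34 genes Spearman's correlation of length with coverage was -0.33, against -0.048 across all 6002 genes. These are descriptions across genes, which are not independent replicates, and the part of length was not tested.

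**Figure D2:**
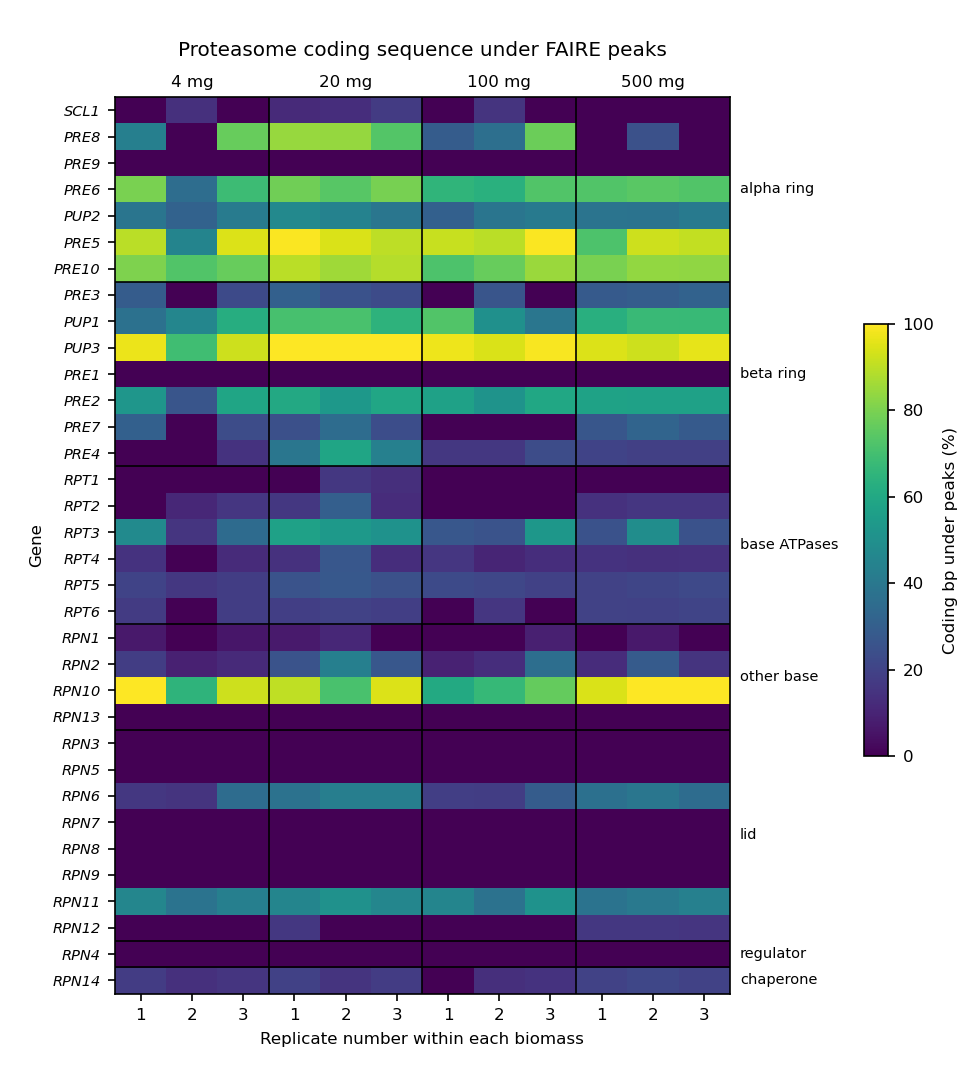
Percent of each proteasome gene, from start to stop codon, that lay under peaks (colour, 0 to 100%) in each of the 12 libraries (columns). Genes are grouped by role; PUP3, PRE5, RPN10 and PRE10 average over 80%, and 9 genes, 5 of them for the lid, are at 0 in every library.

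In the alpha ring, which forms the gate of the core, peaks lay over most genes and summits before few of them. Of the 7 genes, 5 were never marked, 71.4% against 58% of all genes. In all 12 libraries 4 were covered, where the share of all genes was 34.5%. Never being marked was thus the usual state of all genes too. PRE5 averaged 87.4% ± 15 of its length under peaks (SD, n = 12), PRE10 81.3% ± 5.74 and PRE6 69.8% ± 11.9. PUP2 averaged 39.2% ± 4.64, with its strongest summit 364 ± 25.1 bp after the start codon in a gene of 783 bp. In PRE6 that summit lay 399 ± 28.3 bp into 765 bp. PRE5 was less regular, with its strongest summit anywhere between 97 and 474 bp after the start codon. PRE8 was covered in 9 libraries and averaged 44.2% ± 34.1. Ranked by fold enrichment among the covered genes of each library, peaks were weak over PRE5 and PRE8, at median percentiles of 10.4 and 14.2. Those over SCL1, PUP2, PRE10 and PRE6 were at 26.2, 42.8, 55.9 and 78.7. SCL1 was covered in 5 libraries, and its only promoter summit, in 100 mg replicate 2, lay 6 bp before the start codon.

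PRE9 encodes the one alpha subunit that yeast can live without, and it was the reverse of its ring. Its promoter was marked in 8 libraries and the gene was covered in none. The summits lay 357 to 379 bp upstream, inside the 3' end of the neighbouring gene CAF130, at 3243 to 3265 bp of its 3369 bp. Among the marked promoters of the same libraries they were weak, with a median at the percentile 11.5 of the authors' fold enrichment.

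In the beta ring, 3 of the 7 genes were marked in no library, 42.9% against 58% of all genes. In all 12 libraries 3 were covered, where the share of all genes was 34.5%. PUP3 was the most covered of the 34 genes, at 94.4% ± 8.35 (SD, n = 12), and ranged from 69.4% in 4 mg replicate 2 to 100% in all 3 libraries at 20 mg. The peaks that reached its promoter window in all 12 libraries had a median width of 1151.5 bp, and their summits fell in the window in 4. In 4 mg replicate 2 that summit belonged to a separate peak of 346 bp that lay wholly in the window. PRE2, which encodes the chymotrypsin-like cutting subunit, was marked in 10 libraries and averaged 54.3% ± 9.26 covered. Its promoter summits lay 244 to 382 bp upstream, in the 600 bp that part it from the divergent ribosomal protein gene RPL11A. PUP1, for the trypsin-like subunit, was covered in all 12 libraries at 59.4% ± 12.8 and never marked. PRE3, for the caspase-like subunit, was covered in 9 at 20.5% ± 12.7 and never marked.

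PRE1 (chromosome V, 177835 to 178431, plus strand) encodes another beta subunit and was marked in 20 mg replicates 2 and 3 only. The summits lay 182 and 180 bp upstream, with fold enrichments of 2.18 and 1.91, and no peak covered the gene in any library. The exact permutation test of its marking over the 4 biomasses, with 60% of the variance between them, gave p = 0.182 (n = 12) and an adjusted p of 1. PRE7 (chromosome II, 141247 to 141972, plus strand) was never marked, yet in all 12 libraries a peak covered 110 to 428 bp of its window from further upstream. The summits of those peaks lay 524 to 631 bp before its start codon, in the 986 bp that part it from the divergent gene FUI1, a uridine permease. Their fold enrichment had a median of 3.51 and ranged from 2.13 to 5.76, and a longer window would count PRE7 as marked in every library.

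PRE4 (chromosome VI, 249066 to 249866, minus strand) encodes the beta subunit next to the caspase-like one, and its coverage differed most between biomasses. The covered share was 0%, 0% and 14.5% at 4 mg, 39.3%, 58.7% and 43.6% at 20 mg, 16.1%, 16.2% and 23.3% at 100 mg and 20.0%, 18.9% and 19% at 500 mg. The 3 libraries at 20 mg stood above the other 9, and the 3 at 4 mg below the other 9. Of the variance, 88.2% lay between biomasses, with p = 0.000649 in the exact permutation test and an adjusted p of 0.114 over all genes. Its 6 promoter summits, at -496 to -464 bp, all lay in the 3' end of RET2, at 1441 to 1473 of 1641 bp. A peak overlapped at least 50 bp of the PRE4 window in all 12 libraries.

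Among the ATPases of the base, marking was more frequent than in the rings. Of gene and library pairs, 47.2% were marked, against 10.7% in the alpha ring, 26.2% in the beta ring, 27.1% in the lid and 23.7% for all genes. That share comes from 3 genes, RPT4 with 12 libraries and RPT2 and RPT6 with 11 each, while RPT1, RPT3 and RPT5 had none. Counting only summits outside coding sequence, RPT4 and RPT6 fell to 0% of libraries and RPT2 stayed at 91.7%. In the beta ring PRE2, PUP3 and PRE1 then stayed at 83.3%, 33.3% and 16.7%, and PRE4 fell to 0%. The lead of the ATPases over the beta ring thus rests on summits inside neighbouring genes. RPT6 was unmarked in 4 mg replicate 3, where a peak still overlapped 119 bp of the window. RPT2 was unmarked in 20 mg replicate 1, where no peak reached the window.

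RPT4 (chromosome XV, 812395 to 813708, minus strand) was the one proteasome promoter marked throughout. The fold enrichment at its summit was 2.08, 1.82 and 2.89 at 4 mg, 2.88, 2.3 and 2.85 at 20 mg, 2.29, 2.54 and 2.24 at 100 mg and 3.52, 3.73 and 3.21 at 500 mg. These ratios are set by each library's own enrichment and are not comparable between lists. Among the marked promoters of each library, RPT4 ranked from the percentile 9.72 to 82.2, with a median of 53.3. The site was thus near the middle of the marked promoters. The summit lay 373 ± 24.1 bp upstream (SD, n = 12). The divergent neighbour GCD1, which encodes a subunit of a translation initiation factor, starts 275 bp before RPT4. All 12 summits therefore lay inside its coding sequence, 52 to 135 bp after its start codon.

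RPT2 differed in that its 11 summits lay outside any coding sequence, 243 ± 22.3 bp upstream in a gap of 1222 bp. RPT6 had its 11 summits in the divergent gene ALG13, 158 to 232 bp after that gene's start codon. Both also had peaks inside the gene. The strongest summit of RPT2 was 953 ± 14.2 bp into its 1314 bp, in 8 libraries, and that of RPT6 was 639 ± 18 bp into 1218 bp, in 9.

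RPT5 and RPT3 had no marked promoter and a peak inside the gene in all 12 libraries. RPT5 (chromosome XV, 545029 to 546333, plus strand) had 19.9%, 16.1% and 18.2% of its length under peaks at 4 mg, 25.7%, 27.4% and 24.9% at 20 mg, 22.6%, 21.1% and 19.5% at 100 mg and 19.8%, 20.9% and 22.2% at 500 mg. The libraries at 20 mg stood above the other 9, which overlapped among themselves. The exact permutation test gave p = 0.0024 with 84.3% of the variance between biomasses, and the adjusted p was 0.14. RPT1 was covered in 2 libraries, both at 20 mg, and in 9 libraries a peak with its summit at -925 to -536 bp reached into its window.

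The other base subunits are the scaffold proteins Rpn1 and Rpn2 and the ubiquitin receptors Rpn10 and Rpn13. RPN1 and RPN2 are the longest of the 34 genes and were never marked, with 3.92% ± 4.30 and 20.9% ± 11.2 of their length under peaks. RPN13 had a single summit in 20 mg replicate 1, and no peak covered the gene. RPN10 (chromosome VIII, 499079 to 499885, plus strand) was covered in all 12 libraries at 84.4% ± 15.1. Its promoter was marked in 2 of 3 libraries at 4 mg, 1 of 3 at 20 mg, 3 of 3 at 100 mg and 1 of 3 at 500 mg. In the 5 libraries without a summit there a peak still covered at least 439 bp of the window. A peak thus lay over the window in all 12 libraries, with its summit inside it in 7. The exact permutation test of its marking gave p = 0.591 with 31.4% of the variance between biomasses.

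Of the 8 lid genes, 4 had no peak, against 18.6% of all genes, and 4 had at least 1 promoter summit. RPN3, RPN5, RPN7 and RPN9, which encode scaffold subunits, had no peak over the window or the gene in any library. Their nearest summits upstream were at a median of 1488 bp for RPN3, 7294.5 bp for RPN5, 2197 bp for RPN7 and 1952.5 bp for RPN9. RPN8, which encodes the partner of the deubiquitinase, was marked in 20 mg replicate 1 and 100 mg replicate 2 and covered in none.

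RPN11 (chromosome VI, 153393 to 154313, plus strand) encodes the lid's deubiquitinase. Its promoter was marked in all libraries but 100 mg replicates 1 and 3, where a peak still covered 475 and 454 bp of the window. The 10 summits had the smallest spread of the 10 promoters marked in at least 6 libraries, at -340.5 ± 7.15 bp, and lay 64 to 88 bp inside the divergent gene YPI1. A peak covered 43.7% ± 4.58 of RPN11 in all 12 libraries. The exact permutation test of its marking gave p = 0.182 with 60% of the variance between biomasses and an adjusted p of 1. RPN6 was also covered in all 12 libraries, at 30.6% ± 10.7. It was marked in 7, with the summits 41 to 126 bp inside the divergent gene PMT1, and a peak overlapped its window in all 12.

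RPN12 (chromosome VI, 252505 to 253329, plus strand) encodes the lid subunit that joins last. It was marked in 1 of 3 libraries at 4 mg, 2 of 3 at 20 mg, 1 of 3 at 100 mg and 3 of 3 at 500 mg, at -330 ± 21.9 bp and outside any coding sequence. The 701 bp upstream of it run to the divergent gene RET2, whose other end holds the PRE4 promoter summits. The covered share of RPN12 was 0% in all libraries at 4 mg, 16.2%, 0% and 0% at 20 mg, 0% in all at 100 mg and 16.2%, 16.4% and 15.4% at 500 mg. Its coverage was thus present in 4 libraries, all 3 at 500 mg among them. These were weak peaks, at the percentiles 3.78, 1.71 and 8.75 of the covered genes at 500 mg and 28.9 in 20 mg replicate 1. With 74.4% of the variance between biomasses the exact permutation test gave p = 0.0545 and an adjusted p of 0.261. The exact permutation test of its marking gave p = 0.591.

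The regulator gene RPN4 (chromosome IV, 415113 to 416708, minus strand) had no peak over its coding sequence in any library. Its promoter was marked in 4 libraries, 4 mg replicate 1, 20 mg replicates 1 and 2 and 100 mg replicate 3, and in none at 500 mg. The summits lay at -327, -327, -327 and -326 bp. The fold enrichments were 1.79, 2.02, 2.01 and 2.14, at the percentiles 8.27, 23.4, 28.7 and 58.4 of the marked promoters in those libraries. The position was thus the same to 1 bp wherever a peak was called, and the peaks were mostly among the weaker of the marked promoters. Marking by biomass did not pass the exact permutation test (p = 0.836, adjusted p = 1). RPN14 was never marked and was covered in 11 libraries, at 15.7% ± 5.60, with its strongest summit 600 ± 18 bp into a gene of 1254 bp.

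Pooled over libraries, the summits of marked proteasome promoters lay mostly far upstream and often inside the next gene. Of 103 summits in the 34 windows over all libraries, 45.6% lay over 300 and up to 400 bp before the start codon, against 30.5% of the summits of all genes. A site counts here once for each library that called it, so a few promoters can set these shares. RPT4, RPT2, RPT6, PRE2 and RPN11 had 10 to 12 of the summits each. The nearest 100 bp held 0.971% and the next 100 bp 4.85%, against 3.97% and 12.8% for all genes. Inside the coding sequence of another gene lay 61.2%, against 33.1%. Of the 16 promoters marked at least once, 8 (PRE9, PRE4, RPT4, RPT6, RPN13, RPN6, RPN8 and RPN11) had every summit there, 50% against 33.2% of 2519 marked promoters. Summits outside all coding sequences marked 8 of the 34 genes at least once, 23.5% against 28.1%. In at least 6 libraries they marked PRE2, RPT2 and RPN12, 8.82% against 15.8%. The window itself held coding sequence of another gene for 22 of the 34, 64.7% against 56.1% of all genes.

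In 10 promoters marked at least 6 times, the SD of the summit position had a median of 22.1 bp and ran from 7.15 to 49.0 bp, against a median of 17.6 bp for 1414 such genes in all. Inside the genes, summits pooled over libraries were sparse near the stop codon. A site counts here once for each library that called it, so a few genes can set the shares that follow. With each gene cut into 4 equal stretches, the last held 7.31% of 260 summits, against 24.5% for all genes, and the one before it held 35.4%, against 21.9%.

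**Figure D3:**
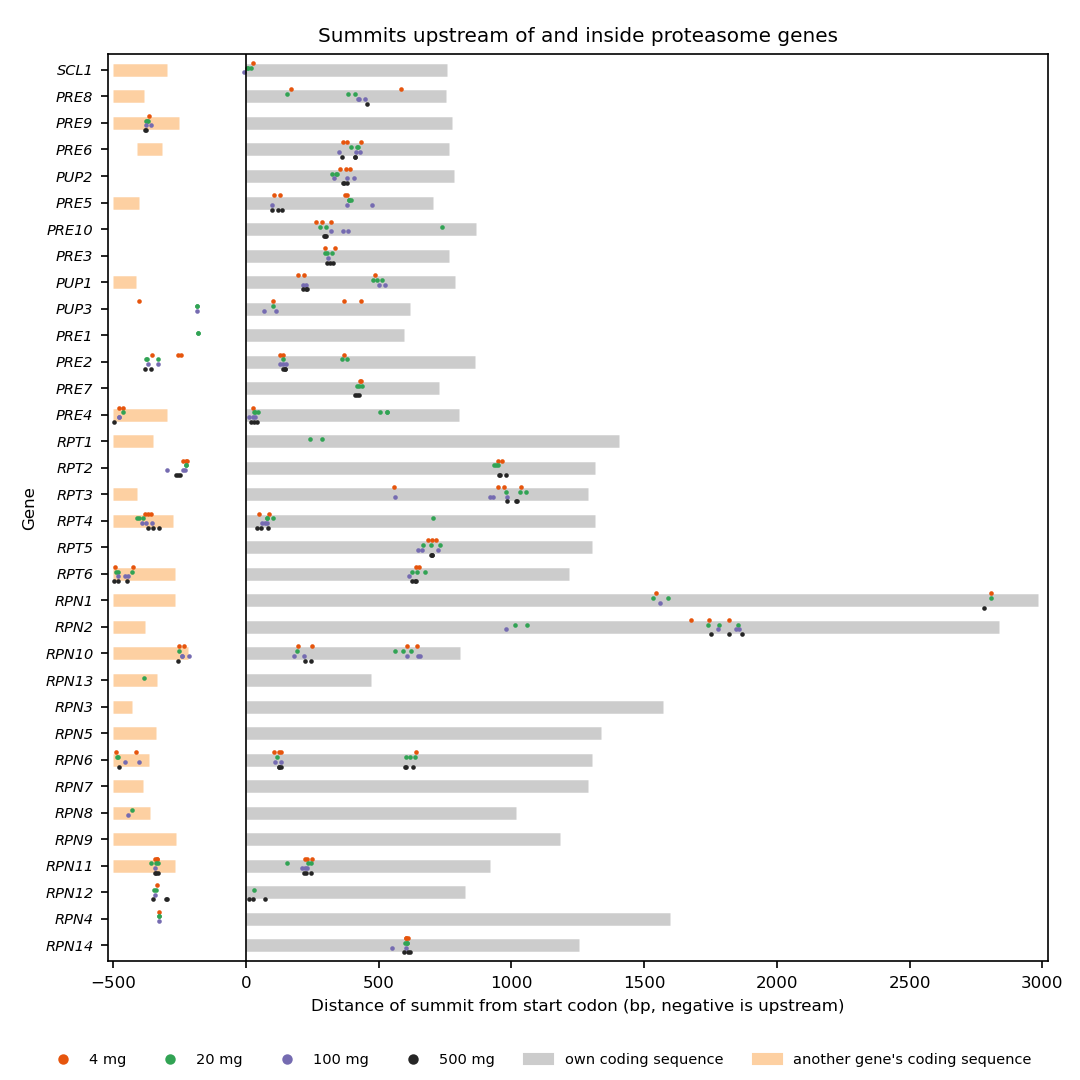
Distance of every summit from the start codon of its proteasome gene (horizontal axis, bp), coloured by biomass; grey bars are the gene itself and orange bars other genes' coding sequence within the 500 bp window. The upstream summits of RPT4, RPT6, RPN11, RPN6 and PRE9 lie on orange bars, whereas the upstream summits of RPT2, PRE2, RPN12 and RPN4 lie outside any bar.

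Across biomasses the marked and the covered share of proteasome genes were highest at 20 mg, as were those of all genes. The number marked was 7, 9 and 8 at 4 mg, 11, 10 and 10 at 20 mg, 4, 12 and 10 at 100 mg and 6, 8 and 8 at 500 mg, with a mean of 8.58 ± 2.23 (SD, n = 12). The 3 libraries at 20 mg were close together, while those at 100 mg spanned the range of all 12. As a share of the 34 genes, marking came to 23.5% ± 2.94 at 4 mg, then 30.4% ± 1.70 at 20 mg, then 25.5% ± 12.2 at 100 mg, with 21.6% ± 3.4 at 500 mg (SD, n = 3 for each biomass). For all genes the shares were 22.8%, 26.0%, 24.4% and 21.8% in the same order. The mean covered share of a proteasome gene was 23.0% ± 6.60, 32.6% ± 1.25, 23.7% ± 2.5 and 27.1% ± 1.74 from the lowest to the highest biomass, and that of all genes 22.2%, 28.4%, 21.6% and 25.1%. The lists at 20 mg were the longest, with 6204 to 6439 peaks against 4180 to 5804 in the others, and coverage was highest there for 19 of the 25 proteasome genes with any coverage, 76% against 64.5% of 4332 genes. The part of list length in this was not tested.

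**Figure D4:**
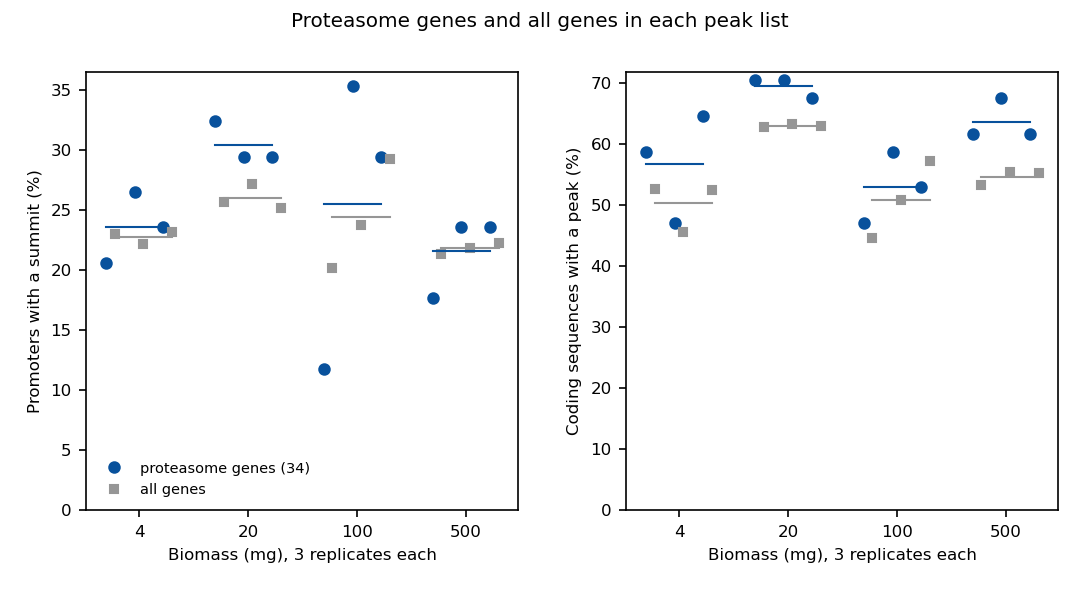
Percent of the 34 proteasome genes (blue circles) and of all genes (grey squares) with a promoter summit (left) and with a peak over the gene (right) in each library, by biomass; short lines are means of 3 replicates. Both sets are highest at 20 mg on average, and 100 mg replicate 1 has the lowest share of proteasome promoters, 11.8%.

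No proteasome gene passed a test of difference between the biomasses. For marking, the exact permutation test with Benjamini-Hochberg adjustment over all genes called 0% of genes, and at an unadjusted p under 0.05 it called 47 genes (0.783%), none of them for the proteasome. For coverage, 0% passed after adjustment. At an unadjusted p under 0.05 there were 9 proteasome genes (PRE8, PRE10, PRE7, PRE4, RPT2, RPT5, RPT6, RPN6 and RPN14), 26.5% against 19.8% of all genes. PRE4 had the lowest of these p-values, and RPT5 the next. The design limits these exact tests: a gene marked in all 3 libraries of 1 biomass and in no other library cannot go below p = 0.0182, and a gene marked in all 6 libraries of 2 biomasses and no other has p = 0.00649, so either pattern passes the adjustment over 6000 genes only where many genes share it.

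Set against 500 mg, no proteasome promoter was marked in 3 of 3 libraries on one side and 0 of 3 on the other, at 4 mg (0.867% of all genes), 20 mg (2.27%) or 100 mg (1.6%). For coverage, none of the 34 genes had all 3 libraries at 4 mg above all 3 at 500 mg (0.833% of all genes). All 3 lay below in 6 (PUP1, PRE4, RPT6, RPN6, RPN12 and RPN14), 17.6% against 15% of all genes. At 20 mg, 8 genes lay above 500 mg (SCL1, PRE8, PRE10, PUP3, PRE4, RPT3, RPT5 and RPN11), 23.5% against 23.7%, and 1, RPN14, lay below, 2.94% against 6.16%. At 100 mg, PRE8 lay above, 2.94% against 2.18%, and 8 lay below (PRE3, PRE7, RPT2, RPT6, RPN10, RPN6, RPN12 and RPN14), 23.5% against 17.9%. The 3 comparisons share the libraries at 500 mg, and 3 against 3 libraries cannot go below p = 0.1 in an exact test. The shares of proteasome genes lie within 6 percentage points of those of all genes, so these counts show nothing particular to the proteasome.

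Among assembly factors and ubiquitin genes, the shares marked in no library and in all 12 were near those of all genes. Of 16 genes for assembly chaperones and associated factors, 9 were marked in no library, 56.2% against 58% of all genes. POC4, which encodes a chaperone of the core, was marked in all 12, at -316 ± 16.1 bp, which makes 6.25% of the list against 9.73%. NAS2 was marked in 2 libraries, TMA17 in 3 and SPG5 in 5. Among the marked promoters of those libraries, median percentiles were 57.5 for NAS2, 80.4 for TMA17 and 69.7 for SPG5. A peak overlapped at least 50 bp of each of these 3 windows in all 12 libraries. NAS2 and TMA17 encode chaperones of the base, and both genes had peaks inside, in 11 and 12 libraries.

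Of 22 genes for ubiquitin, its enzymes and shuttle factors, 11 were marked in no library, 50% against 58% of all genes. UBC4 and UBC5 were marked in all 12, 9.09% of the list against 9.73%. These encode near-identical ubiquitin-conjugating enzymes. The UBC4 summit lay at -247 ± 6.11 bp and the UBC5 summit at -198 ± 4.45 bp. Both lay outside any coding sequence, at median percentiles of 87.3 and 76.3 among the marked promoters of each library. UBI4, the polyubiquitin gene that stress induces, was marked in 10 libraries, at a median percentile of 86.5.

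CDC48, which encodes the ATPase that extracts ubiquitinated proteins, was the gene of this list with an unadjusted p under 0.05 for marking, and it is named for that after its values were seen. It was marked in 0 of 3 libraries at 4 mg, 3 of 3 at 20 mg, 3 of 3 at 100 mg and 0 of 3 at 500 mg, with p = 0.00649 and an adjusted p of 1 in the exact permutation test. In the 6 libraries without a summit there, a peak still overlapped 103 to 249 bp of its window.

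Of 6 genes that control RPN4 or its product, YAP1 was marked in all 12 libraries, at -278 ± 6.49 bp and a median percentile of 81.1, and 1 gene in no library, each 16.7% of the list against 9.73% and 58% of all genes. YAP1 encodes a transcription factor of the oxidative stress response. PDR3, which encodes a drug resistance factor, was marked in 5 libraries at a median percentile of 67.3, and UBR2, for the ubiquitin ligase of Rpn4, in 8 at 30.9. A peak overlapped at least 50 bp of the PDR3 window in all 12 libraries. The gene never marked was MUB1, which encodes the partner of Ubr2 and had no peak over the window or the gene. None of the genes in these 3 lists passed the adjusted tests for marking or coverage.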

How the data were processed

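The submitters' processing notes name MACS2 2.1.1.20160309, Bowtie2 2.2.8, FastQC 0.11.5, SAMtools 1.4 and bedtools 2.26.0, with build R64 (sacCer3). The settings of these tools were not given in the sources used here. According to the labels, each of the 12 lists was made from 1 FAIRE library and its own input, with no pooling. Each deposited peak has positions, a score (10 times −log10 q, rounded down), a fold enrichment, a −log10 p-value and a −log10 q-value, all by the authors' peak caller. Fold enrichments are each list's own and were not compared between lists. Their median over the lists in which a gene was marked served only to choose genes to name or to describe 1 site.

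Genes were placed by a RefSeq table of R64. Summits were the deposited start plus the deposited summit offset, turned to 1-based positions. Percentiles for promoters rank the fold enrichment of the strongest summit among the marked promoters of the same library. Percentiles for genes rank it among the covered genes of that library. The 4 biomasses were compared per gene by an exact permutation test over 369600 assignments of the 12 libraries, on the percent of variance between groups, with Benjamini-Hochberg adjustment over all genes, tested on simulated data. Python 3.11.15, numpy 2.4.6 and pandas 2.3.3 were used. Alternatives changed the window, the marking rule, the peaks kept and the libraries.

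The proteasome genes, the other gene lists and the tests were chosen with earlier results of these data known. Values were given by library for RPN4, for genes marked in all 12 libraries, for the 3 genes with the most variance between biomasses in marking (4 with a tie) and in coverage, and for the gene never marked whose window a peak overlapped in all 12. In the other lists, genes marked in all 12 libraries and the 3 with the highest median fold enrichment were named. Promoter sequences and motifs were not analysed here.

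Same-numbered libraries of different biomasses did not deviate together, so the replicate numbers were not used as pairs.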

Additional observations from a re-analysis of the deposited data

How the results depend on the processing

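The promoter counts changed with the window and the marking rule, and the coverage counts with the peaks kept. With a window of 250 bp, 0 proteasome genes were marked in all libraries and 28 in none, the mean per library was 1.58 and 8 genes had no peak in the window or the gene. That last count was added after seeing the data. With 1000 bp these were 5 in all, 10 in none and a mean of 16.4. When a peak over 50 bp of the window marked it, 8 were marked in all, with a mean of 13.1. With summits outside coding sequence only, 0 were marked in all and the mean was 3.33. With peaks of −log10 q of 5 or more, 7 genes were covered in all libraries. With the strongest 3000 peaks, 0 promoters were marked in all, the mean was 4.25, the median covered share was 5.09%, 3 genes were covered in all libraries and 8 had no peak. When a peak had to cover 50% of a gene, 3 were covered in all.

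Leaving out each library in turn gave 1 to 2 genes marked in all (2 without 4 mg replicate 3, which adds RPT6, and without 20 mg replicate 1, which adds RPT2), 18 to 19 in none, means of 8.27 to 9, a median covered share of 16.4% to 18.8%, 13 to 14 genes covered in all and 4 to 5 with no peak. After adjustment 0 genes differed between biomasses in marking, whichever library was left out, and 0 to 8 in coverage, the 8 without 4 mg replicate 3 and with no proteasome gene among them. With the replicate block, 0 genes passed for marking and 0 for coverage, with 3 and 750 at an unadjusted p under 0.05. The replicate numbers did not pair the samples: same-numbered libraries had correlations of coverage from -0.536 to 0.258, and 3 of 12 libraries correlated best with their own number. Of these recomputed values, 113 stayed within 1.5 times or 1 SD of the main value and 21 moved further. The depth behind each list, not analysed here, limits all counts.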
